A study of Mus musculus with 4 samples.

Results

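The MHC class II genes examined were the 10 genes H2-Ab1, H2-Aa, H2-Eb1, H2-DMa, H2-DMb1, H2-DMb2, H2-Oa, H2-Ob, Cd74 and Ciita. They were taken by name out of 21887 protein-coding genes of the mouse gene table, and all 10 were found there. H3K4me3, a histone mark of promoters, and H3K9me3, a mark of heterochromatin, had been profiled by ChIP-seq in peritoneal macrophages of C57BL/6 mice aged 8 weeks. The cells had been recruited with thioglycollate broth, plated until adherent and exposed for 24 h to LPS, a bacterial cell wall component, or to PBS as the control. There was 1 library for each mark and treatment, 4 in all, with no genetic manipulation named in the labels. Differences between LPS and PBS therefore have no replicate check and compare these libraries only. No test between treatments was possible.

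Class II molecules are pairs of an alpha and a beta chain that show peptides from engulfed material to helper T cells. Macrophages, dendritic cells and B cells carry them. Cd74, the invariant chain, blocks the peptide groove of new class II molecules and guides them to endosomes. There H2-DM exchanges the remaining Cd74 fragment for peptides, and H2-DO restrains H2-DM. Ciita is the coactivator on which transcription of these genes depends. It is recruited by factors that bind the X and Y boxes, short sequence elements close to the start of class II genes.

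Promoter sequences of 7 of the 10 genes were held in the RefSeq promoter table of build GRCm38.p6, the same build as mm10, as windows of 300 bases that run from 250 before to 50 after a start site. The windows were searched on both strands for the Y box letters GATTGG and the X box letters CCTAGNNAC. The Y box letters occurred in 7 of the 8 windows of these 7 genes, with at least 1 window for each gene, against 16.1% of all 32851 windows in the table. The X box letters occurred in H2-DMb1 and H2-Ob, against 3.91% of all windows. The letters CNNATGATG, from the downstream side of the X box, were chosen after the member sequences had been read. They occurred in H2-Eb1, H2-DMb1, H2-DMb2 and H2-Ob and in 2.75% of all windows, so this count describes the genes the letters were drawn from. In H2-DMb1 and H2-Ob they begin on the last letter of the X box match CCTAGNNAC. The stretches of 50 bases that end with the Y box are printed because they show how the boxes are placed in 6 of the genes, with the searched letters in capitals.
H2-DMb1, chr17:34153085-34153134, plus strand: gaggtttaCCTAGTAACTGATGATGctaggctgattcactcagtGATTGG
H2-DMb2, chr17:34145114-34145163, plus strand: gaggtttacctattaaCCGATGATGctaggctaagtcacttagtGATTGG
H2-Eb1, chr17:34305763-34305812, plus strand: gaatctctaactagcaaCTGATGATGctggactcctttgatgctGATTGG
H2-Ob, chr17:34238803-34238852, plus strand: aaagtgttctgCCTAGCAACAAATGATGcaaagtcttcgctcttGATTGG
H2-Oa, chr17:34092291-34092340, plus strand: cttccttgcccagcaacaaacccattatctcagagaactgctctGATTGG
H2-Aa, chr17:34287867-34287916, minus strand: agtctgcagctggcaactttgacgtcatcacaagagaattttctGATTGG

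The letters CNNATGATG ended 16 bases before the Y box in H2-Ob, 18 in H2-Eb1, and 19 in H2-DMb1 and H2-DMb2. In these 6 genes the Y box began between 44 bases before the start site in H2-Oa and 91 in H2-DMb2. In H2-DMa it lay 199 bases before the upper of its annotated start sites. No match of the X letters was found in H2-Oa and H2-Aa, which says only that these letters are not in the window. H2-DMb1 and H2-DMb2 are duplicated neighbours. Their windows were identical at 209 of 270 aligned positions (77.4%), and how the aligner split tags between such copies was not tested.

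For H2-DMa, the alpha chain of H2-DM, the window at the lower of its start sites differed in CpG content. It lies mostly inside the annotated Brd2 gene, whose upper end (34122814) it contains, so it cannot be told apart from Brd2 sequence. It held 29 CpG dinucleotides, more than 87.1% of all windows had, and neither box was found in it. The 7 other windows held 0 to 3 CpGs, and the median of all windows was 7. The window is shown whole because it lies inside the peak with the most tags at these genes, with no searched letters to mark.
H2-DMa, chr17:34122582-34122881, plus strand: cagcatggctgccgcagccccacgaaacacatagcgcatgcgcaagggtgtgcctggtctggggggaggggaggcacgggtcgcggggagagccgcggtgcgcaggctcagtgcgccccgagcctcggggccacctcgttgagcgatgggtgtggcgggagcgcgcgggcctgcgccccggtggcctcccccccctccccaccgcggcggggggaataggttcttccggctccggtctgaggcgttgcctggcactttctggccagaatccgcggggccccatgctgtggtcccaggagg

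The libraries held 26748289 to 29681491 tags after the caller's filter. Peaks had been called in each library alone, at a p threshold of 1e-05, so a gene without a listed peak was under that threshold and need not lack the mark. Of the H3K4me3 tags, 14.0% lay in peaks in LPS and 17.8% in PBS, and regions present in both lists had a median log2 ratio (LPS over PBS, per filtered tag) of -0.31. Of the H3K9me3 tags, only 1.62% lay in peaks in LPS and 1.69% in PBS. The median H3K9me3 peak held 17 tags over 258 bp in LPS and 16 tags over 245 bp in PBS. Tag counts are given as deposited, and intervals are exact 95% intervals of counting error only. As a check of the cell type, 8 of 8 macrophage markers had an H3K4me3 peak within 1 kb of a gene end in both lists, against 60.1% of all protein-coding genes. For other cells that carry class II, the counts in both lists were 3 of 8 B cell markers and 4 of 8 dendritic cell markers. Cd79b, Ms4a1, Cd22 and Blk were at 0 in both lists at their gene ends, as were Zbtb46, Ccr7, Clec9a and Cd209a of the dendritic cell list. Cd22 had a peak at a start site away from the ends (67 tags in LPS and 115 in PBS). Some other markers of these cells had as many tags as macrophage markers, and others had fewer. Cd79a had 256 tags in LPS and 354 in PBS, and Batf3 had 318 in LPS and 429 in PBS. The Cd79a tags lay at its upper-coordinate end (24901858), and whether they belong to Cd79a or to a neighbour gene was not tested. They enter the B cell count and the summed level of that list. Ebf1, Flt3, Xcr1 and Itgax ranged from 47 to 162 tags in LPS and from 146 to 249 in PBS. The macrophage list ranged from 56 to 515 in LPS and from 94 to 621 in PBS. Ebf1, at 47 tags in LPS, was under that range there. The remaining B cell marker with peaks in both lists had 44 tags in LPS and 38 in PBS, under every macrophage marker. The summed level of the B cell list was 13.0 CPM (tags scaled to the filtered tags of the library) in LPS and 18.1 in PBS, and of the dendritic cell list 26.5 in LPS and 34.5 in PBS. T cell markers had peaks in both lists at 3 of 8 genes and summed to 9.91 in LPS and 12.4 in PBS, with Cd3e, Cd3g, Lck and Cd2 at 0 at their gene ends. Lck had a peak at a start site away from the ends (177 tags in LPS and 216 in PBS). The part of such cells in the results was not tested, and a smaller share of marked cells cannot be told apart from less mark per cell.

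H3K4me3 was listed at every one of the 10 genes in at least 1 library, but often away from the ends of the gene. On the gene body or within 1 kb of it, 7 of 10 genes had peaks in both lists, as did 67.3% of all protein-coding genes. H2-Oa was listed in LPS alone (background 1.43%), H2-Ob and Cd74 in PBS alone (2.93%), and 0 of 10 genes were listed in neither (28.3%). Within 1 kb of a gene end, both lists had a peak at 5 of 10 genes (background 60.1%), LPS alone at H2-Oa (1.26%), PBS alone at H2-Ob (3.14%), and neither at 3 (35.5%). The 3 genes with none at an end, H2-Eb1, Cd74 and Ciita, had their peaks inside the body, a placement seen in 7.18% of all genes. Around the start sites of the promoter table, which 7 of the genes have, both lists had a peak within 1 kb at 2 genes, H2-Aa and H2-DMb1 (62.2% of 17492 genes). LPS alone had one at 2, H2-DMa and H2-Oa (0.978%), PBS alone at H2-Ob (2.52%), and neither at H2-Eb1 and H2-DMb2 (34.3%). Each list held 12 peaks at these genes, of which 9 met a peak of the other list. Merged, these gave 15 regions, of which 9 were listed in both (60.6% of all 36669 regions in the genome), 3 in LPS alone (15.4%) and 3 in PBS alone (24%).

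**Figure D1:**
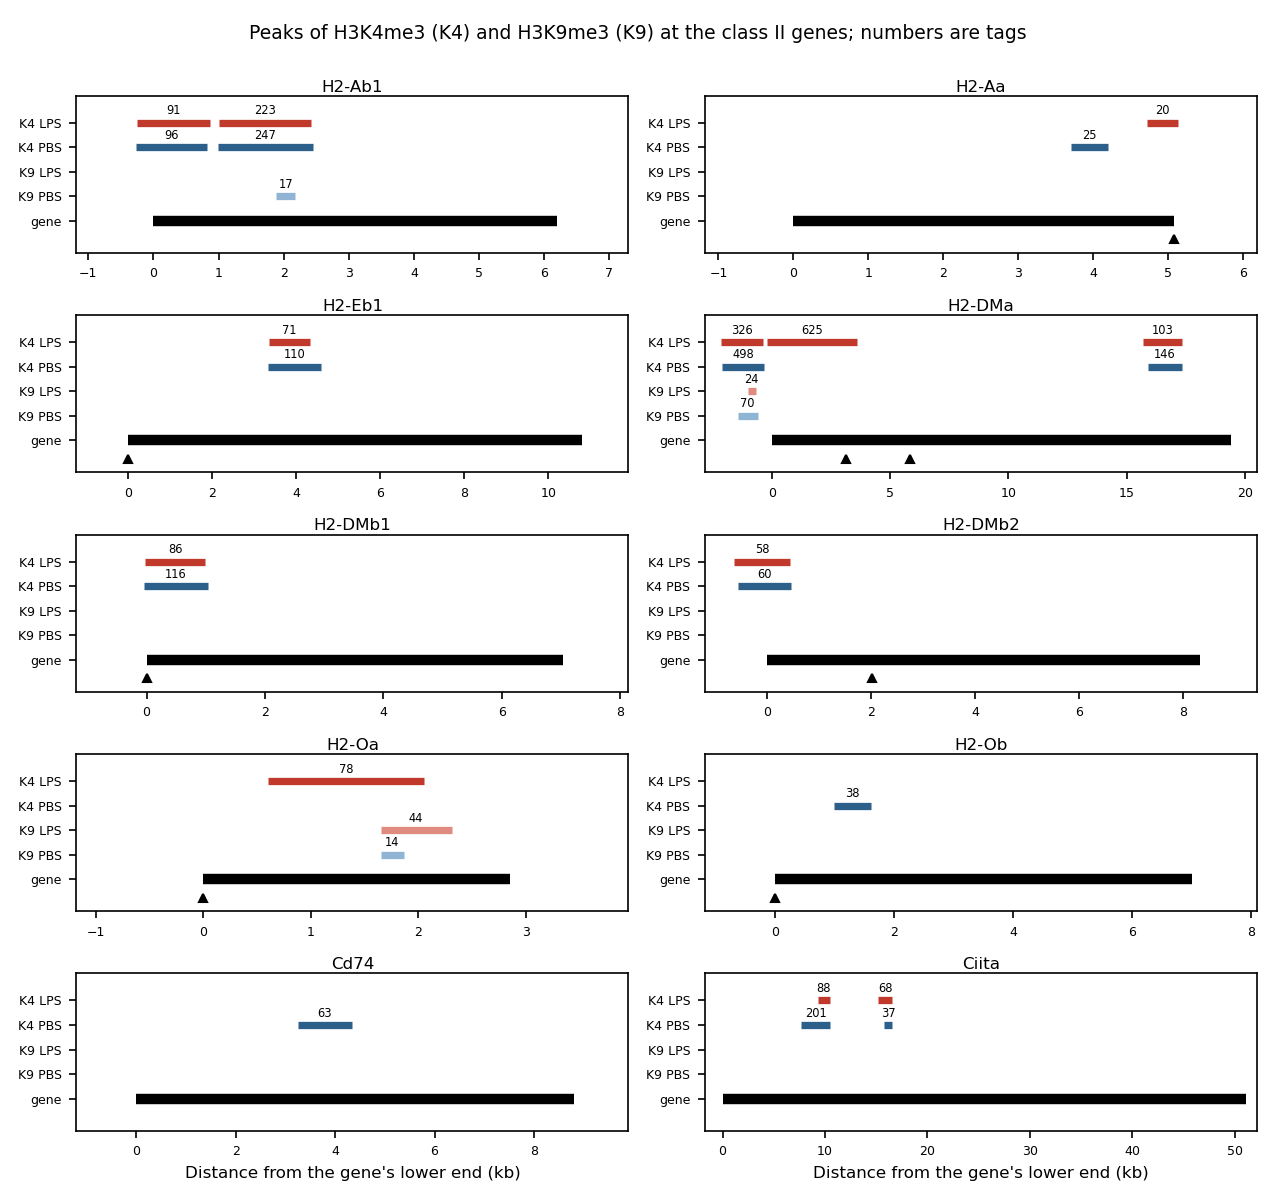
Peaks of H3K4me3 (K4) and H3K9me3 (K9) that reach within 1 kb of each class II gene, by distance from the gene's lower-coordinate end in kb; numbers are tags in the peak, the black bar is the gene and triangles are start sites of the promoter table. The lower peak of H2-Ab1 and the peak of H2-DMb1 cover the gene end in LPS and PBS, those of H2-Eb1, Cd74 and Ciita lie inside the gene, and H2-Oa, H2-Ob and Cd74 have a K4 peak in 1 list only.

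H2-Ab1 encodes the beta chain of H2-A, a classical class II molecule, and lies on chromosome 17 (34263227 to 34269418). Its H3K4me3 came as a pair of adjacent peaks, 0.122 kb apart after merging. The lower peak covered the gene end, with 91 tags in LPS (1.11 kb) and 96 tags in PBS (1.09 kb). The upper peak had 223 tags in LPS (1.41 kb), against 247 tags in PBS (1.47 kb). Per filtered tag the log2 ratio of LPS to PBS was 0.07 (interval -0.36 to 0.50) for the lower peak and 0.0026 (-0.27 to 0.27) for the upper one. Both intervals include 0, and the summits of LPS and PBS were 23 bp and 9 bp apart.

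The value for H2-Ab1 depended on where the window stopped. The upper peak began 1011 bp inside the gene in LPS and 987 bp inside it in PBS, so a window of 1 kb took it in for PBS alone. At the gene end this gave 91 tags in LPS and 343 in PBS, a log2 ratio of -1.76 (-2.11 to -1.43). With a window of 2.5 kb, which took in both peaks of each list, LPS had 314 tags against 343 in PBS, and the ratio was 0.023 (-0.20 to 0.25).

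H2-Aa encodes the partner alpha chain (chromosome 17, 34282744 to 34287823) and had much less mark. A peak of 20 tags over 0.42 kb covered its start site in LPS. In PBS a peak of 25 tags over 0.484 kb lay 891 bp from the start site, inside the gene. These peaks did not overlap and were 521 bp apart, so H2-Aa counts as listed in both at the gene end (-0.17, -1.10 to 0.74) but shares no region. They were among the weakest of their lists, with lower scores for only 4.95% of LPS peaks and 10.1% of PBS peaks. The Y box stretch of H2-Aa overlapped the LPS peak and lay 934 bp from the PBS peak.

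H2-Eb1 encodes the beta chain of H2-E, whose alpha chain gene H2-Ea is a pseudogene in C57BL/6 mice. The gene (chromosome 17, 34305867 to 34316674) had no peak at its start in either list. Its peak began 3349 bp inside the gene in LPS, with 71 tags over 0.991 kb, and 3338 bp inside it in PBS, with 110 tags over 1.25 kb. The summits were 4 bp apart and the log2 ratio was -0.48 (-0.93 to -0.04). Per covered kb it was -0.15. The Y box stretch of H2-Eb1 lay 3.40 kb from the LPS peak and 3.39 kb from the PBS peak.

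The peaks with the most tags lay at the lower end of H2-DMa. The gene, as annotated on chromosome 17 (34119693 to 34139101), overlaps the neighbour Brd2 (34112019 to 34122814), a chromatin reader, so the 2 genes cannot be told apart as the source of the peaks at that end. A peak just outside that end held 326 tags in LPS (1.79 kb), against 498 in PBS (1.76 kb; log2 ratio -0.46, -0.67 to -0.26). Beside it, LPS listed a peak of 625 tags over 3.82 kb (34119471 to 34123293) that covered the CpG-rich start site window, and PBS listed none. This LPS peak was wider than 98.3% of its list, yet its fold over the caller's local background was 3.26, the lowest of the LPS peaks at class II genes. Of 5638 LPS peaks with no PBS counterpart, 9, this peak included, held 625 tags or more, and the median of the 5638 was 27. The nearest PBS peak, the one of 498 tags, ended 112 bp away.

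At the gene end of H2-DMa the LPS peaks summed to 951 tags (5.62 kb covered), against the single PBS peak of 498 tags (1.76 kb). The log2 ratio was 1.08 (0.93 to 1.24) in tags and turned to -0.59 per covered kb. A further peak inside H2-DMa as annotated (34135381 to 34137039 over both lists) held 103 tags in LPS and 146 in PBS. Its summits were 1 bp apart and its ratio was -0.35 (-0.73 to 0.02). It lay 2062 bp from the upper end of the gene in LPS and 2077 bp in PBS. The promoter table gives no start site there, and whether one is used was not tested. It is the only H2-DMa region that does not lie at Brd2, and its level of 2.32 CPM per covered kb in LPS and 3.40 in PBS was within the range of the other class II genes.

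H2-DMb1, a beta chain of H2-DM, had a peak over its start site with 86 tags on 1000 bp in LPS, against 116 on 1094 bp in PBS (-0.28, -0.70 to 0.13). The peak started 37 bp from the Y box stretch in LPS and 6 bp from it in PBS. H2-DMb2, the duplicate, had 58 tags on 1072 bp in LPS, against 60 on 1019 bp in PBS (0.10, -0.44 to 0.65). Its peak lay at the lower end of the gene, 1.45 kb in LPS and 1.43 kb in PBS from the Y box stretch of its start site. The intervals of both duplicates include 0.

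**Figure D2:**
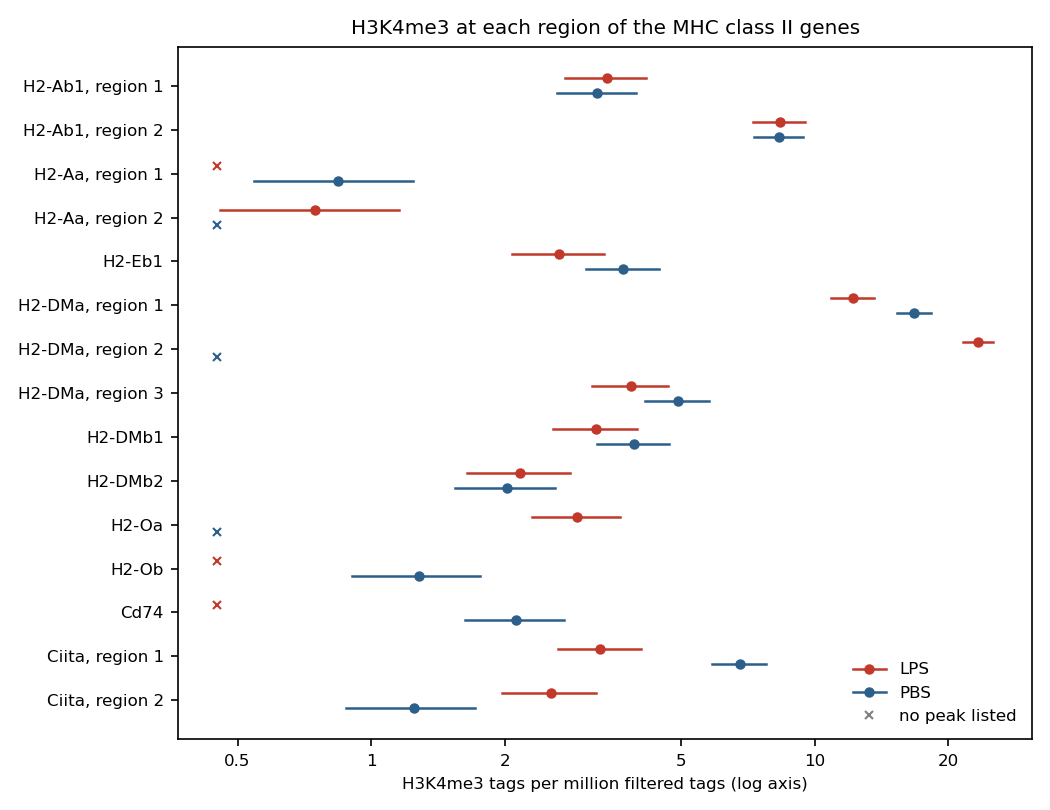
H3K4me3 tags in CPM of filtered tags (log axis) in LPS and PBS for each of 15 merged regions at the class II genes; bars are 95% counting intervals and crosses mark a list with no peak. H2-Ab1 regions coincide between LPS and PBS, the 625-tag region 2 of H2-DMa, which also overlaps Brd2, is the highest and has no PBS peak, and the regions of Ciita go in opposite directions.

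The H2-DO genes were each listed in 1 library. H2-Oa, its alpha chain (chromosome 17, 34092379 to 34095234), had 78 tags over 1.46 kb in LPS from 598 bp inside the gene onward, and the nearest PBS peak was 7.02 kb away. H2-Ob, its beta chain (34238905 to 34245908), had 38 tags over 0.618 kb in PBS, with an edge 995 bp from the start site, and the nearest LPS peak was 13.2 kb away. The H2-Oa peak held more tags than 95.3% of LPS peaks without a PBS counterpart. The H2-Ob peak was ordinary for its kind, with more tags than 59.4% of PBS peaks without an LPS counterpart.

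Cd74 (chromosome 18, 60803849 to 60812652) was listed in PBS only. Its peak (60807098 to 60808189) held 63 tags, had a score of 88.12 and began 3249 bp from the lower end of the gene. The nearest LPS peak was 30.5 kb away. The peak held more tags than 84.7% of the PBS peaks that had no LPS counterpart. No H3K4me3 peak of either list lay within 1 kb of an end of Cd74.

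Ciita is a long gene on chromosome 16 (10480014 to 10531064) whose transcripts are known to begin at several alternative promoters with different cell type and cytokine dependence. It had H3K4me3 at 2 places inside the gene and none at its ends. The region nearer the lower end (10487677 to 10490506) held 88 tags on 1168 bp in LPS, against 201 on 2830 bp in PBS, a log2 ratio of -1.04 (-1.42 to -0.67). The other region (10495233 to 10496535), 4.73 kb farther in, held 68 tags on 1301 bp in LPS, against 37 on 737 bp in PBS, a ratio of 1.03 (0.43 to 1.65). The gene thus had fewer tags in LPS than in PBS at one place and more at the other, with intervals that do not overlap. Over the whole gene LPS had 156 tags, against 238 in PBS (-0.46, -0.76 to -0.16).

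The opposite directions at Ciita went with the length that was called. The upper edges of the LPS and PBS peaks were 26 bp apart in the first region and 2 bp apart in the second. The lower edges were 1636 bp and 566 bp apart, the LPS peak being the shorter one in the first region and the longer one in the second. The summits lay 70 bp apart in the first region and 415 bp apart in the second. Per covered kb the ratios were 0.24 and 0.21. Among all 22219 regions shared by the lists, 2.61% had a lower ratio than the first region and 99.3% had a lower ratio than the second.

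**Figure D3:**
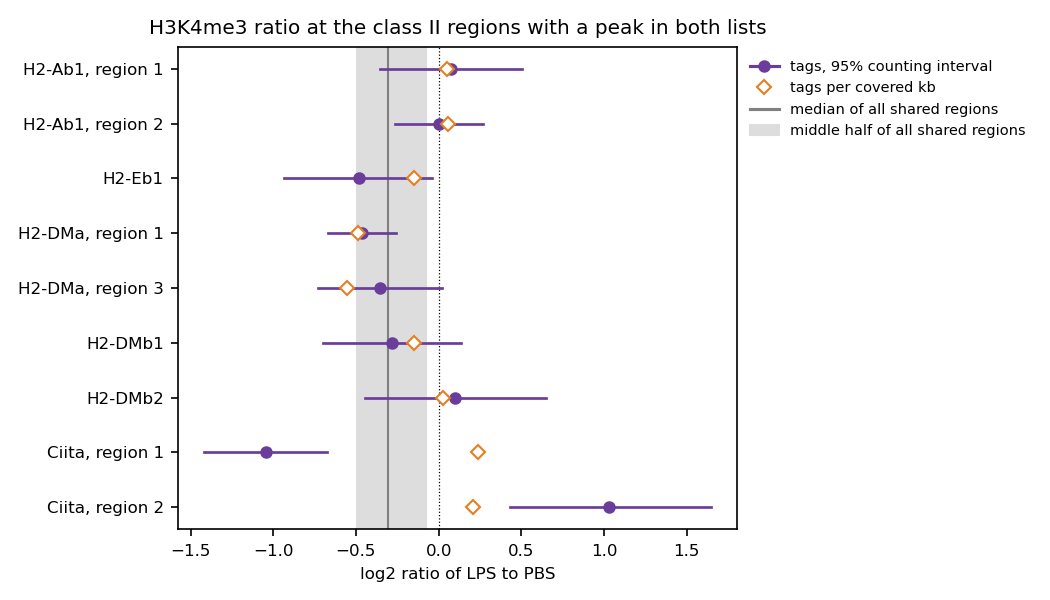
Log2 ratio of LPS to PBS H3K4me3 tags for the 9 class II regions with a peak in both lists, with 95% counting intervals (circles), and the same ratio per covered kb (diamonds). The gray line and band are the median and middle quartiles of the ratio in tags over all 22219 shared regions. They are a reference for the circles only, and per covered kb the median of all shared regions was -0.15. The Ciita regions lie at -1.04 and 1.03 in tags but at 0.24 and 0.21 per covered kb, and the other 7 lie between -0.48 and 0.10.

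Across the 9 shared regions the median log2 ratio was -0.28, beside -0.31 for all shared regions. Of the 9, 5 lay above that general median and 6 had an interval that included it. The regions of Ciita were the ones that reached 2-fold. A 2-fold higher count in LPS was found at 1 of 9, against 0.559% of the 17893 shared regions of 100 or more tags. A 2-fold lower count in LPS was likewise found at 1 of 9, against 3.19%. Ratios above 0 were found at 4 of the 9 regions, against 20.3% of all shared regions. The interval lay wholly above 0 at 1 of the 9 and wholly under 0 at 3. Covered length was greater in LPS at 5 of the 9, against 33.8%. These gains were 19, 32, 53, 213 and 564 bp, and the changes at the other regions ran from -54 to -1662 bp. Per covered kb the median was 0.03 for the class II regions and -0.15 for all. At gene ends the median of the 5 genes listed in both was -0.17, beside -0.36 for the 13151 such genes in the genome.

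The level of H3K4me3 was set in order by CPM per covered kb, which scales for library depth and called length only. In LPS the order was led by the lower H2-DMa region (6.80), the wide H2-DMa region (6.11), both also at Brd2, and the upper H2-Ab1 region (5.90). The next, H2-DMb1 (3.22), lay apart from these beyond counting error, and each later neighbour in the order overlapped with the one before it. The lowest in LPS was H2-Aa (1.78). In PBS the lower H2-DMa region (9.53) stood apart from the upper H2-Ab1 region (5.68), and that from H2-DMb1 (3.57). From H2-DMb1 down to the upper Ciita region (1.69), neighbours in the PBS order overlapped. For the shared regions the median was 2.82 in LPS and 2.97 in PBS, beside 3.31 in LPS and 3.83 in PBS for all shared regions. The class II regions were of ordinary width, with a median of 1.3 kb for the 9 shared ones and 1.42 kb for all shared ones.

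**Figure D4:**
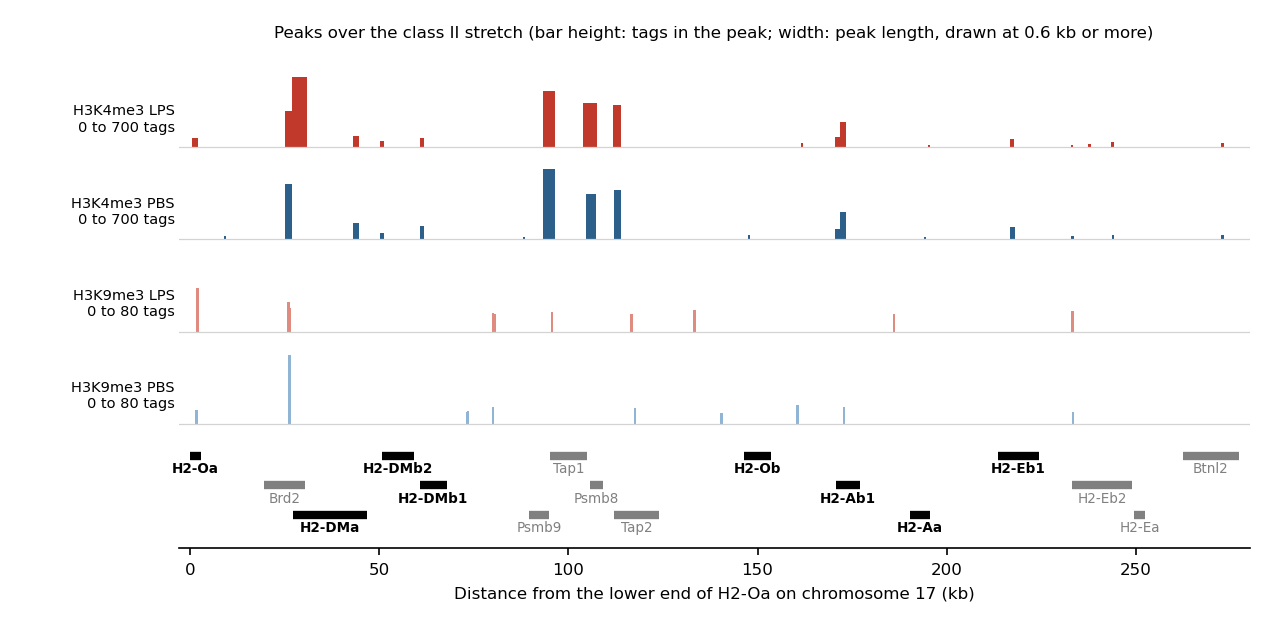
Peaks of the 4 libraries over the class II stretch of chromosome 17, by distance in kb from the lower end of H2-Oa; bar height is the tags in a peak, on a separate scale for each mark that starts at 0, and class II genes are in black. H3K4me3 is highest at Brd2 with H2-DMa and over Psmb9, Tap1, Psmb8 and Tap2, lower at H2-Ab1, and low at the other class II genes.

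H3K9me3 was listed on the body of H2-Oa and H2-Ab1, 2 of 10 genes in either library, against 35% of all protein-coding genes. Both lists had one at H2-Oa (background 16.1%), LPS alone at 0 of 10 (10.5%), PBS alone at H2-Ab1 (8.37%), and neither at 8 of 10 (65%). The class II genes are short, with a median length of 7.68 kb against 17.2 kb for all, and these shares are not adjusted for length. The class II stretch from H2-Oa to Btnl2 covered 277 kb and held 10 H3K9me3 peaks in each list. Of these, 2 in LPS and 3 in PBS lay on or within 1 kb of the listed class II genes. The stretch held 36.1 such peaks per Mb in LPS (8.87 on chromosome 17) and 36.1 in PBS (9.26). Its H3K4me3 peaks were likewise dense, with 65 per Mb in LPS (14.8 on the chromosome) and 61.3 in PBS (15.8). In H2-Oa the H3K9me3 peak held 44 tags on 665 bp in LPS, against 14 on 215 bp in PBS. Its log2 ratio was 1.61 (0.71 to 2.59) in tags and -0.02 per covered kb, so the peak was longer in LPS at a like density. It overlapped the H3K4me3 peak that LPS listed in H2-Oa, and in LPS the H3K9me3 summit lay 1792 bp and the H3K4me3 summit 1766 bp from the start site.

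In H2-Ab1 an H3K9me3 peak of 17 tags over 0.297 kb was listed in PBS only, inside the upper H3K4me3 peak. Just outside H2-DMa, the H3K4me3 region shared with Brd2 met H3K9me3 peaks of 54 tags in LPS (2 peaks) and 70 tags in PBS (1 peak), a log2 ratio of -0.42 (-0.96 to 0.11). The PBS peak there had a score of 211.08, above 97.7% of its list. Of the 15 H3K4me3 regions, 3 met an H3K9me3 peak, against 20.1% of all merged regions. Over all lists, 33.7% of H3K9me3 peaks in LPS and 22.4% in PBS met an H3K4me3 peak of the same treatment. Cd74, Ciita, H2-Aa, H2-Eb1, H2-DMa, H2-DMb1, H2-DMb2 and H2-Ob had no H3K9me3 peak on the body.

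Other genes of the class II pathway were read against the 60.1% of all genes with a gene-end peak in both lists. Of the 7 genes of the factors that bind the X and Y boxes, 5 had a peak at a gene end in both lists, and the other two, Rfx5 and Nfyc, had one at a start site in both lists (177 tags in LPS and 244 in PBS for Rfx5, 199 in LPS and 310 in PBS for Nfyc). Their median log2 ratio was -0.57, beside -0.36 for all promoters. Per covered kb it was -0.06, beside -0.21 for all promoters. The ratios in tags ran from -0.34 at Rfxap, an RFX subunit (291 tags in LPS and 408 in PBS), to -0.90 at Creb1 (318 in LPS and 657 in PBS). Of 6 genes of peptide processing, 4 had peaks in both lists. Their median was -0.80, or -0.04 per covered kb, from -0.34 at Ifi30, a lysosomal thiol reductase (485 in LPS and 681 in PBS), to -1.26 at Ctsl, a protease that trims Cd74 (181 in LPS and 480 in PBS). Ctss, the main Cd74 protease of antigen-presenting cells, was listed in PBS only at its ends (162 tags), as were 3.14% of all protein-coding genes.

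Among 10 regulators of Ciita, mostly of the interferon gamma pathway, 9 had peaks in both lists with a median of -0.35. Irf1 was the highest (737 tags in LPS and 686 in PBS, ratio 0.25) and Ifngr1, a receptor chain, the lowest (131 in LPS and 279 in PBS, -0.94). Spi1, encoding the myeloid factor PU.1, was listed at its ends in LPS only (503 tags), as were 1.26% of all protein-coding genes. A PBS peak farther than 1 kb from its ends would not be counted here. Of the genes of class II turnover, Cd83 had 379 tags in LPS and 438 in PBS (-0.06) and the ubiquitin ligase gene Marchf8 had 170 in LPS and 217 in PBS (-0.20). Marchf1, which encodes the ligase that sends surface class II to degradation, had no gene-end peak but one at a start site, with 61 tags in LPS and 146 in PBS. Among 8 neighbours in the class II stretch, 5 had gene-end peaks in both lists with a median of -0.17. They ran from 0.14 at Psmb8, an immunoproteasome subunit (399 in LPS and 402 in PBS), to -0.53 at H2-Eb2 (20 in LPS and 32 in PBS). Psmb9 and Tap1 shared 1 peak (503 in LPS and 628 in PBS). That peak was entered for each of these genes, and its ratio is the median given. Brd2 was listed in LPS only at its ends, through the wide peak it shares with H2-DMa, while the PBS peak of 498 tags lay inside Brd2. The H2-Ea pseudogene and Btnl2 had no peak at a gene end in either list.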

How the data were processed

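H3K4me3 and H3K9me3 ChIP-seq peak lists of macrophages treated with LPS or PBS were used, 1 library per mark and treatment. Tools listed by the submitters' processing notes were MACS 1.4.2, Bowtie 0.12.8, DiffBind and CASAVA 1.4, with mm10 as the build. Peak calling by MACS used no control library, per the file headers, and ran at a p threshold of 1e-05, with a local background range of 10000 bp and at most 1 tag kept per position. The deposited files give the tag count of each peak, a score (minus 10 times log10 of the caller's p) and the authors' fold over background, a ratio within the library.

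Counts were divided by filtered tags, and levels are given as counts per filtered tag in CPM. Peaks of LPS and PBS were shared at 1 bp of overlap, and merged into regions where they overlapped or touched. Genes came from a GRCm38.p6 RefSeq table that gives outer ends, and a window of 1 kb at the end with more tags was used. Distances run from the lower-coordinate end where no strand was given. Intervals are exact Clopper-Pearson (ratios) or Poisson (levels) at 95%. Python 3.11.15 with scipy 1.17.1 was used, and the code was tested on simulated data. All 10 genes are named, and of each pathway list the highest and lowest ratio; further names were chosen after their values were seen. The members and lists were chosen with earlier results of these data known. A marker gene of the lists is not reported by name here.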

Additional observations from a re-analysis of the deposited data

How the results depend on the processing

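With no replicates, counting error is the only error that could be given, and peaks of 20 to 40 tags have wide intervals. No paired analysis was possible because each group had 1 library. The counts of genes with an H3K4me3 peak at an end (5 shared, 1 LPS only, 1 PBS only, 3 neither) did not move with a window of 2.5 kb. With scores of 100 or more they were 2, 0, 2 and 6. With start sites of the promoter table, an alternative chosen after the data were seen, they were 2, 2, 1 and 2 of 7 genes. The H3K9me3 counts on bodies (1 shared, 0 LPS only, 1 PBS only) were 2, 0 and 1 with bodies extended by 1 kb, and 0, 1 and 0 with scores of 100 or more. The median log2 ratio at gene ends was 0.40 with scores of 100 or more, where only 2 genes remained (H2-DMa and H2-DMb1). It was 0.19 with the median of all promoters set to 0. Over merged regions it was 0.0251 with the median of all regions set to 0 and 0.0281 per covered kb; leaving out the region shared with Brd2, chosen after the data were seen, gave -0.14. Ratios whose interval excluded 0 changed sign in 4 recomputed values, given next. Ratios of H2-Aa, H2-DMb1 and H2-DMb2, whose intervals include 0, changed sign under some settings too, and no direction is given for them. H2-Ab1 at the gene end was 0.0227 with a window of 2.5 kb, because the upper peak of LPS then counted. H2-DMa at the gene end was -0.59 per covered kb, and the lower H2-DMa region was 1.08 when peaks up to 500 bp apart were merged, because the wide LPS peak joined it. The lower Ciita region was 0.24 per covered kb. The length called in each library enters the values per kb by construction, and the cause of those lengths was not tested.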

Other observations

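Between the class II genes of chromosome 17, a few peaks met no annotated protein-coding gene body. LPS listed an H3K4me3 peak of 36 tags (34253758 to 34254419) 8.55 kb below the lower H2-Ab1 peak, where PBS listed none. PBS listed H3K4me3 peaks of 33 tags at 34101457 and of 25 tags at 34180438 that LPS did not. H3K9me3 in PBS had a peak of 19 tags at 34252872, on the same side of H2-Ab1, and in LPS one of 18 tags at 34278396, between H2-Ab1 and H2-Aa. Both libraries listed H3K9me3 between H2-DMb1 and Psmb9, with 19 tags in LPS at 34172294 and 17 in PBS at 34172322. H2-Eb2, a further beta chain gene, had H3K9me3 at its lower end in both lists (21 tags in LPS and 12 in PBS) together with H3K4me3 (20 in LPS and 32 in PBS). Deeper in H2-Eb2 an H3K4me3 peak held 48 tags in LPS and 35 in PBS, and inside Btnl2 one held 41 tags in each. These peaks were chosen after their values were seen.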
